A study of Drosophila melanogaster with 4 samples.

Results

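The proximal ends of X and 3R are the 2 Mb of each assembled arm sequence nearest the centromere, taken here as consecutive 1 kb windows on FlyBase release 5. On X, whose centromere lies at the high coordinates, the windows ran from 20422828 to 22422827. On 3R, whose centromere lies at the low coordinates, they ran from 1 to 2000000. This gave 2000 windows on each arm, 4000 of the 139706 full windows that all sequences together hold without Uextra. The windows were chosen by position alone, and all 4000 are accounted for below.

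HP1a was mapped by chromatin immunoprecipitation and sequencing (ChIP-seq), with an antibody named wa191, in nuclei of wild-type Oregon-R Drosophila melanogaster at the third larval instar. Per the labels there are 2 libraries of HP1a ChIP (replicates 1 and 2) and 2 of input with the same replicate numbers. Each ChIP library has a deposited list of enriched clusters, and a further list covers the series as a whole. All libraries share 1 strain, genotype and stage with no treatment, chromatin came from homogenised larval tissue in which cell types are mixed, and the labels do not say whether the replicates were separate collections.

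HP1a carries a chromodomain that binds histone H3 methylated at lysine 9, and a chromoshadow domain through which it pairs with itself and recruits partners. In flies it is a main protein of pericentric heterochromatin, the repeat-rich chromatin around centromeres, where genes moved close by can be silenced in some cells and not in others. In the proximal part of an arm that chromatin gives way to gene-rich euchromatin, and where it does so in each assembled sequence was not examined. Near the proximal end of X lies flamenco, a locus full of transposon remnants that makes piRNAs, the small RNAs that silence transposons in the ovary. No gene coordinates on release 5 were used here, so no cluster is assigned to a gene and no sequence is shown.

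The 2 ends differed in how HP1a was laid out. Proximal X held 1 dense stretch of wide, strong clusters that began about 575 kb from the end of the sequence, with thin cover on either side. Proximal 3R held a block of about 23 kb at its very end, with values near 1, and beyond it isolated clusters, 10 of which had a log2 value of at least 1 in both replicates. Cover was measured as the share of sequence under clusters, with overlapping clusters merged. Proximal X had 10.8% in replicate 1 and 12.9% in replicate 2, or 11.9% ± 1.5 (SD, n = 2). Proximal 3R had 4.71% and 5.39%, or 5.05% ± 0.48.

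On both arms the proximal 2 Mb was covered more than the next 2 Mb. On X the next 2 Mb had 4.75% in replicate 1 and 4.71% in replicate 2, so that the proximal stretch had 2.28 and 2.74 times as much. On 3R the next 2 Mb had 2.36% and 2.81%, so that the proximal stretch had 2.00 and 1.91 times as much. Against all of the arm outside the proximal window the ratios were 2.30 and 2.68 on X and 3.38 and 4.07 on 3R. The proximal values of both replicates lay above those of the sequence they were set against, and the gaps exceeded the replicate spread. The smallest p that an exact paired permutation test over 2 libraries allows is 0.5, so these differences carry no test.

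Both ends were far less covered than the proximal 2 Mb of the other 3 major arms. Set against proximal 2L, which had 41.1% and 43.1%, proximal X had 0.263 and 0.300 times the cover and proximal 3R 0.115 and 0.125 times. Proximal 2R and 3L were covered over 68.3% to 73.5% in the 2 replicates. How far each arm sequence reaches into heterochromatin is set by the assembly and was not examined, so the order of the arms cannot be told apart from where each sequence ends.

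**Figure D1:**
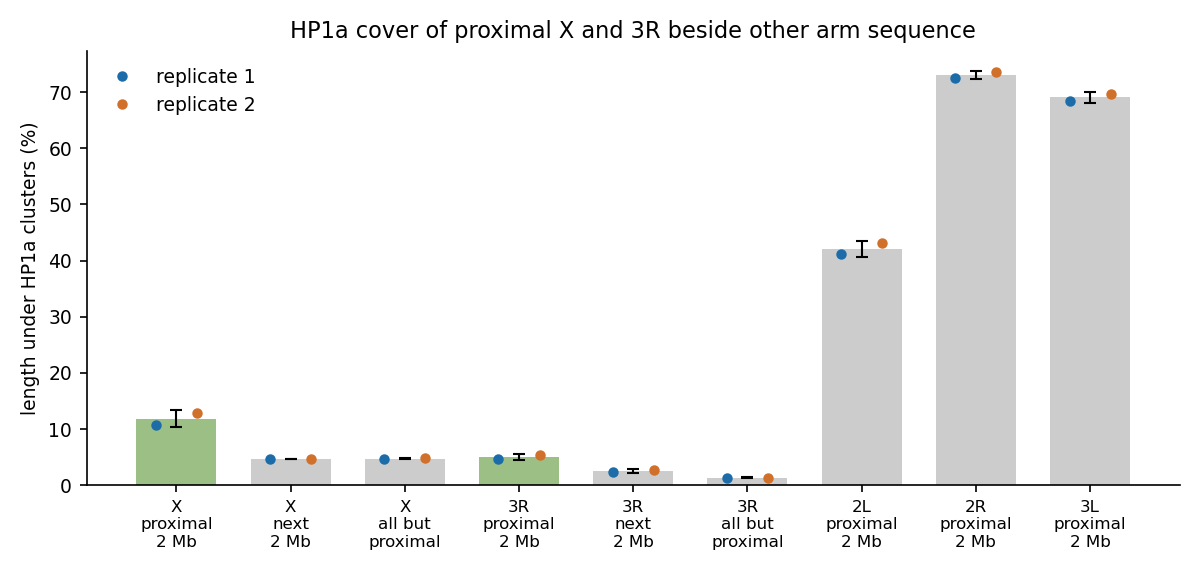
The bars give the mean percentage of length under HP1a clusters, with SD over the 2 ChIP replicates, and the points give each replicate. Proximal X (11.9%) and proximal 3R (5.05%), in green, stand above the next 2 Mb and all else of their own arm, and below proximal 2L, 2R and 3L.

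A window was called covered when at least 500 of its bases lay under clusters. In both replicates together this held for 192 windows of proximal X (9.6%) and 89 of proximal 3R (4.45%), against 5.04% of all windows of the major arms and 12.8% of windows of all sequences. The share on 3R was thus close to that of the major arms as a whole, which the blocks of 2L, 2R and 3L raise. By replicate, proximal X had 219 and 264 such windows (10.95% and 13.2%) and proximal 3R had 95 and 106 (4.75% and 5.3%), against 5.59% and 5.69% of windows of the major arms and 13.7% and 14.7% of windows of all sequences, in replicates 1 and 2. Most windows were covered in neither replicate, 1709 on X and 1888 on 3R having fewer than 500 covered bases in each. Windows fully under clusters numbered 163 and 200 on X and 65 and 69 on 3R.

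Each cluster carries 1 value, the authors' own, taken here as the log2 of ChIP enrichment over input. Among covered windows of proximal X the value of the cluster with most overlap had a median of 1.91 in replicate 1 and 1.83 in replicate 2, and reached at most 3.81 and 2.92. On proximal 3R the medians were 1.06 and 1.07, with maxima of 2.27 and 2.28. A value of at least 1, a 2-fold enrichment, was held by 83.6% and 79.5% of covered windows on X, and by 57.9% and 53.8% on 3R. The covered windows of X thus carried higher values in both replicates, with the caution that neighbouring windows under 1 wide cluster share its value.

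Counted as clusters, proximal X had 49 in replicate 1 and 56 in replicate 2, and proximal 3R had 32 and 37. The median value over clusters on X was 1.81 and 1.17, or 3.51-fold and 2.26-fold. The replicates stood apart in this median, and 17 of the 49 clusters in replicate 1 and 23 of the 56 in replicate 2 were below 1. On 3R the median was 0.78 and 0.73, and 13 and 12 clusters had a value of at least 1. Of the X arm's clusters with a value of at least 2, the proximal 2 Mb held 15 of 21 in replicate 1, 14 of 19 in replicate 2 and 13 of 29 in the series list, on 8.92% of the length. At a value of at least 1 it held 32 of 131 in replicate 1 and 33 of 114 in replicate 2, so most of those lay outside it. On 3R it held 3 of 6 clusters with a value of at least 2 in each replicate and 3 of 14 in the series list, on 7.17% of the length. At a value of at least 1 these were 13 of 40 in replicate 1 and 12 of 41 in replicate 2. Of the X clusters that were at least 5 kb wide, the proximal 2 Mb held 15 of 51 in replicate 1 and 13 of 46 in replicate 2.

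**Figure D2:**
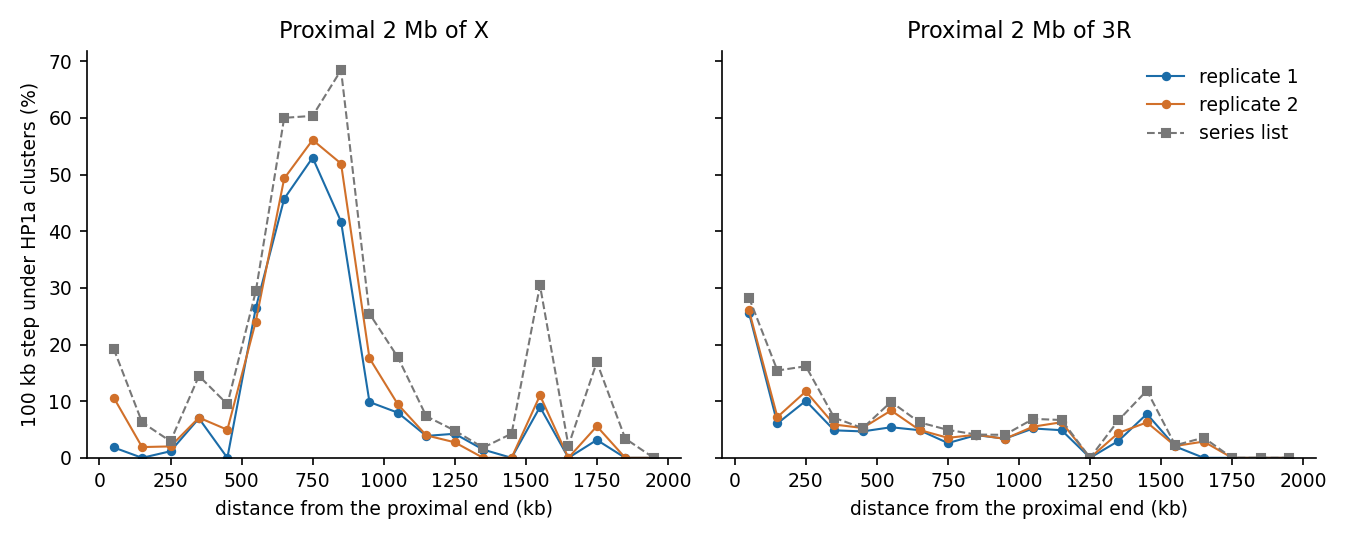
The lines give the percentage of each 100 kb step under HP1a clusters against distance from the proximal end, for both replicates and the series list. X peaks between 500 and 1000 kb from its end, and 3R is highest in its first step, with 25.6% and 26.0% in replicates 1 and 2. On X the series list also reached 30.4% from 1500 to 1600 kb, where the replicates had 8.98% and 11.0%.

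Read along X from the proximal end, the first 500 kb were thinly covered. The step nearest the end, of 100 kb, had 1.84% in replicate 1 and 10.6% in replicate 2. The fifth step, from 400 to 500 kb, had no cover in replicate 1 and 4.95% in replicate 2. Cover was then 26.4% and 24.1% from 500 to 600 kb, 45.7% and 49.3% from 600 to 700 kb, 53.0% and 56.1% from 700 to 800 kb, and 41.7% and 51.9% from 800 to 900 kb. The step after that had 9.85% and 17.6%. From 1200 to 2000 kb only the step from 1500 to 1600 kb exceeded 5% in both replicates, with 8.98% and 11.0%. The 4 steps with at least 10% in both replicates were neighbours, and none of them was at the end of the sequence.

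The dense stretch was split by a gap. Its distal domain ran from 21500290 to 21687452 (187 kb) and its proximal domain from 21758862 to 21847348 (88.5 kb), the outermost cluster edges of any list. These bounds were chosen after the clusters were seen, so their cover is a description. The distal domain was covered over 55.8% in replicate 1 and 65.0% in replicate 2, and the proximal domain over 77.3% and 79.9%. Together they make up 13.8% of the window's length and held 80.0% and 74.5% of its covered bases. Outside them proximal X had 2.51% and 3.82%, below the 4.69% and 4.82% of the rest of the arm. With these domains set aside, no excess of the proximal window over the rest of X remained in either replicate. The series list had the other order, with 9.07% outside the domains and 8.72% in the rest of X. A stretch picked for its clusters leaves a thinner remainder by construction, so this describes the window and does not test where its excess lay.

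Between the domains, the 71.4 kb from 21687453 to 21758861 held no cluster in any of the 3 lists. Stretches on which no read could be placed also appear empty in such lists, and whether this gap is one of them was not examined. Both replicates placed its distal edge at nearly the same position. The last cluster before it ended at 21687271 in replicate 1 and 21687390 in replicate 2, with values of 1.93 and 1.97. The first one after it differed, beginning at 21758862 in replicate 1 and at 21762293 in replicate 2.

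**Figure D3:**
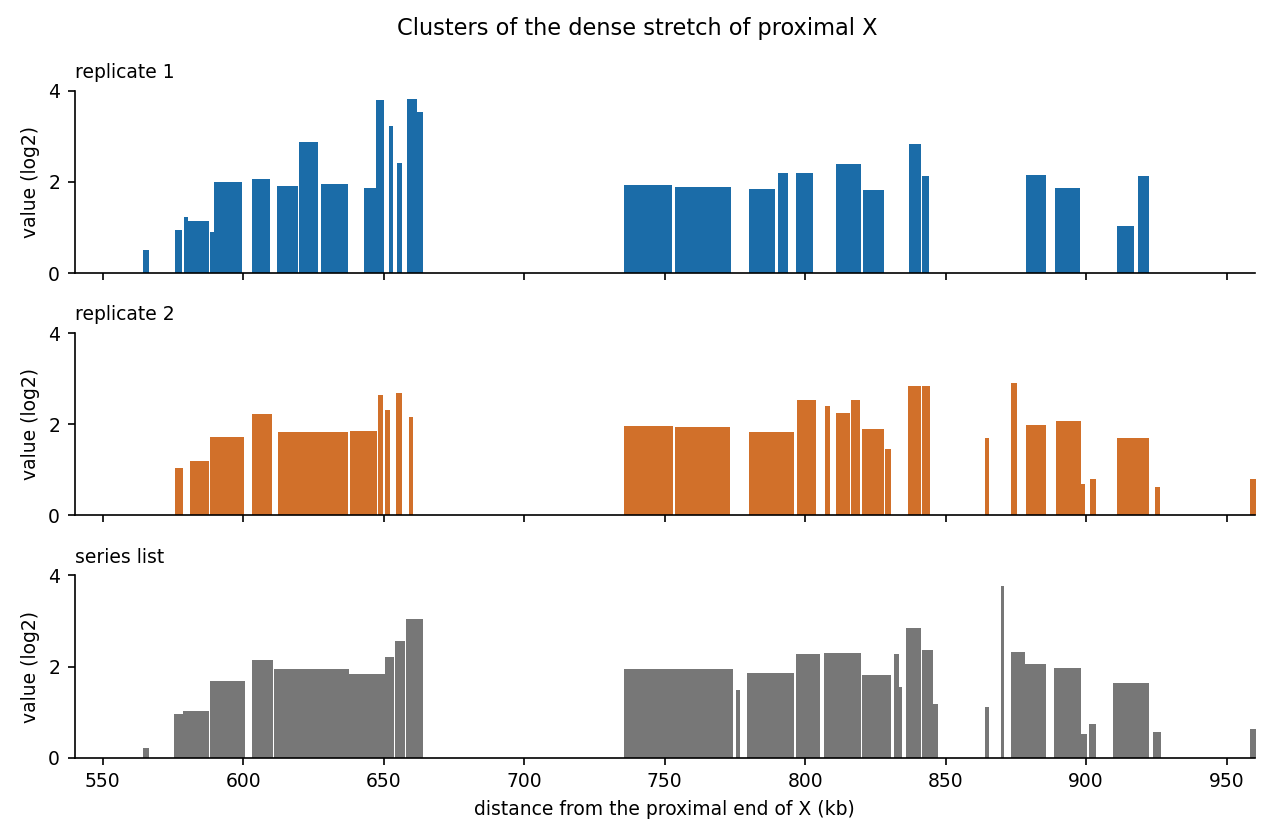
Each filled box is a cluster, its width drawn to scale along the distance from the proximal end of X and its height the log2 value, in replicate 1, replicate 2 and the series list. The proximal domain lies at about 575 to 664 kb and the distal domain at about 735 to 923 kb, with an empty gap of 71.4 kb between them in all 3 lists.

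In the distal domain the cover came in long, even pieces toward the gap and in shorter pieces away from it. The widest cluster of proximal X in replicate 1 spanned 21649159 to 21669097 (19939 bp) with a value of 1.90. Its counterpart in replicate 2 was 19654 bp wide with a value of 1.94, and covered 98.6% of it. The neighbouring cluster, 21670410 to 21687271 in replicate 1, had 1.93 and its counterpart 1.97. The series list joined both into 1 cluster of 38947 bp with a value of 1.94. Farther from the centromere, the cluster from 21633428 to 21642914 had 1.86 in replicate 1, and the wider one of replicate 2, from 21626918 to 21642844, had 1.84. The width-weighted mean value of the domain was 1.98 and 2.01, so on this measure the replicates were nearly equal.

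A site at which both replicates had the same high value also lay there. The cluster from 21581735 to 21586050 had 2.83 in replicate 1, and its counterpart from 21581762 to 21586079 had 2.83 in replicate 2. Its neighbour, from 21578752 to 21581335, had 2.12 in replicate 1 and 2.84 in replicate 2, a value that another cluster of the replicate 2 list holds exactly. The highest value of replicate 2, 2.92 from 21547611 to 21549615, had no cluster under it in replicate 1, and it too was a repeated value. The distal edge of the domain was also less even. Replicate 1 had 2 clusters there, 21500298 to 21504442 with 2.14 and 21505979 to 21511684 with 1.04, where replicate 2 had 1 from 21500306 to 21511947 with 1.69.

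The proximal domain held the widest cluster of replicate 2 on proximal X, 21785393 to 21810599 (25207 bp) with a value of 1.82. Replicate 1 clusters covered 93.7% of it, the widest of them 21785665 to 21795204 with 1.95. Nearer the centromere, 21823418 to 21833226 had 1.99 in replicate 1, and its counterpart of 12142 bp had 1.72. In this domain values were higher at the distal side and lower toward the centromere. In its distal part, 21758862 to 21803105, the width-weighted mean value was 2.67 in replicate 1 and 1.94 in replicate 2. In its proximal part, 21803106 to 21847348, it was 1.66 in both. Clusters were assigned to a part by their midpoint, so the replicate 2 cluster of 25207 bp counted wholly in the distal part. In replicate 1 the cluster from 21803185 to 21810675, under the same stretch, counted in the proximal part. The equal values thus rest on partly different bases. The last clusters before the domain ended, up to 21847289 in both replicates, had 0.95 in replicate 1 and 1.05 in replicate 2. The direction was the same in both replicates, but its size rested on replicate 1, whose 3 highest clusters of proximal X lay in the distal part.

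Those 3 clusters were where the replicates disagreed most. The cluster from 21761122 to 21764378 had 3.81 in replicate 1, and the replicate 2 cluster under it had 2.16 and covered 44.6% of it. The cluster from 21772764 to 21775406 had 3.80, and its counterpart had 2.65. The cluster from 21758862 to 21760866 had 3.53 and no counterpart in replicate 2. In the distal part of the domain, 5 of the 8 clusters in replicate 1 and 4 of the 6 in replicate 2 shared their exact value with some other cluster in that list, against 0 of 7 and 0 of 4 in its proximal part. Over all clusters of proximal X this share was 20.4% and 30.4%, and over those of the rest of X 14.2% and 12.1%. The cluster with 3.81, where the paired values lay farthest apart, did not hold a repeated value. How many reads lie behind a repeated value is unknown, and the part of such values in the disagreement was not tested.

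**Figure D4:**
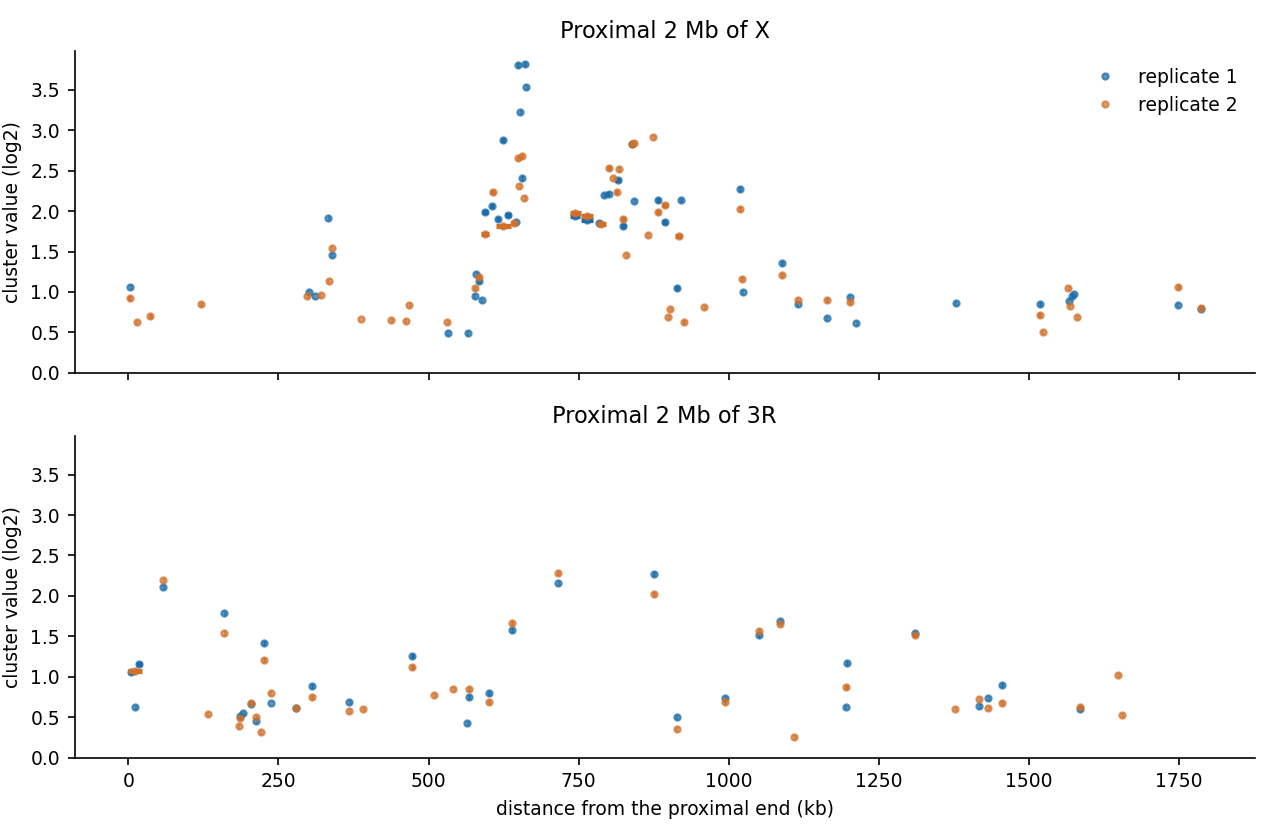
Each point is a cluster, at its log2 value and its distance from the proximal end, with a line over its extent, in replicate 1 and replicate 2. On X the values above 2 gather between 575 and 923 kb, with 1 further cluster at about 1017 kb, while on 3R strong clusters of 1.1 to 2.3 stand alone among weaker ones up to about 1309 kb.

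By cluster median, the domains lay near 3RHet, the separately assembled heterochromatin of 3R, and above both XHet and the rest of their own arm. Cluster medians were 2.12 and 1.98 in the distal domain and 1.99 and 2.00 in the proximal domain, in replicates 1 and 2. XHet, the separately assembled heterochromatin of X, had 1.37 and 1.04, 3RHet had 1.99 and 2.02, and the rest of X had 0.80 and 0.76. The domains were picked for their clusters, and these medians are a description of the sites, with no test. Clusters of proximal X outside them had medians of 0.87 and 0.88 on the distal side and 1.00 and 0.84 on the side of the centromere.

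Outside the domains, 15 of 21 replicate 1 clusters of proximal X overlapped a replicate 2 cluster. In the other direction 15 of 28 replicate 2 clusters overlapped one of replicate 1. In each list 4 of the shared clusters had a value of at least 1 in both replicates. The strongest, from 21403149 to 21405562, had 2.28 in replicate 1 and 2.03 in replicate 2. The windows around it, 21398828 to 21405827, were the only block of at least 5 kb outside the domains, where a block is a run of windows covered in both replicates and joined over at most 2 missing ones. Farther from the centromere, the cluster from 21332080 to 21335265 had 1.35 in replicate 1, and its counterpart had 1.21. Toward the centromere, the cluster from 22088406 to 22090672 had 1.92 in replicate 1, and its counterpart had 1.13. The cluster from 22083259 to 22084892 had 1.46, and its counterpart had 1.55. At the end of the sequence, replicate 1 had a cluster from 22418362 to 22420196 with 1.06 and replicate 2 one from 22418381 to 22422579 with 0.92. The 213 kb at the distal edge of the window, 20422828 to 20636205, held no cluster in either replicate.

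On 3R the longest of 3 blocks of at least 5 kb lay at the very end of the sequence. Replicate 2 had 1 cluster from 3 to 23424 with a value of 1.07. Replicate 1 had 3 clusters over the same bases, 8 to 10580 with 1.06, 10728 to 12670 with 0.63 and 13001 to 23487 with 1.16. The series list had 1, from 4 to 23508, with 1.06. Its values were below the cluster medians of 1.99 and 2.02 in 3RHet, although the block lies at the end of 3R that faces the centromere. It held 24.4% and 21.7% of the cover of proximal 3R in replicates 1 and 2. Beyond it the window had 3.61% and 4.26%, still above the 1.40% and 1.32% of the rest of 3R, so the excess of proximal 3R over its arm did not rest on this block alone. The other 3R blocks, 470001 to 475000 and 1193001 to 1198000, were 5 kb long each. At the second of these replicate 2 had 1 cluster, 1193454 to 1198158, with 0.87, where replicate 1 had 2, 1193447 to 1195483 with 0.62 and 1195538 to 1198373 with 1.17.

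Cover on 3R was highest next to the end and lowest in the last 500 kb of the window, with no steady trend between. In steps of 250 kb it was 15.8% and 17.2% next to the end, block included, then 4.68% and 5.28%, 5.15% and 6.72%, 2.96% and 2.97%, 4.02% and 4.71%, 4.29% and 4.26%, 0.80% and 1.99%, and 0 in both for the last step, in replicates 1 and 2. From 1655785 to 2000000 there was no cluster in any of the 3 lists, the longest empty stretch of either window at 344 kb. The next cluster of each list began within 1 kb of the window's edge, at 2000689 in replicate 1 and 2000854 in replicate 2. Clusters of the first 1 Mb had a median value of 0.75 in both replicates, and those of the second 1 Mb had 0.89 and 0.70, so the replicates did not share a trend in value.

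The clusters of 3R that had a value of at least 1 in both replicates were 12 of replicate 1, of which 2 belong to the end block. The other 10 stood apart from each other. All 12 had a median width of 2915 bp in replicate 1, against 2013 bp for the other 19 clusters it shared with replicate 2. The strongest in replicate 1 was 873493 to 877504, with 2.27, and its counterpart had 2.03. The strongest in replicate 2 was 714106 to 717635, with 2.28, and its counterpart, 714972 to 717577, had 2.16. The cluster from 57147 to 59694 had 2.11 in replicate 1 and 2.20 in replicate 2. These 3 sites were the only ones of proximal 3R with a value of at least 2 in either replicate.

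The remaining strong sites of 3R had values from 1.1 to 1.8. The cluster from 158809 to 161320 had 1.79 in replicate 1, and its counterpart had 1.54. The one from 1085148 to 1086733 had 1.69 in replicate 1 and its counterpart 1.66, both of them repeated values, but the series list gave this site 0.80. The one from 637051 to 639896 had 1.57 in replicate 1 and its counterpart 1.66. Nearly as strong was 1309046 to 1312029, with 1.54 and 1.52, and next to it in strength came 1048141 to 1051737, with 1.52 and 1.57. The lowest were 224767 to 227185, with 1.42 and 1.21, and 470438 to 475101, with 1.26 and 1.12. No strong site of both replicates lay beyond 1312029. Wide clusters with values below 1 were also present, such as 565129 to 569762 in replicate 2 with 0.85, over which the widest replicate 1 cluster had 0.75, and 1453559 to 1457224 in replicate 1 with 0.89, whose counterpart had 0.67.

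The isolated sites of 3R were located closely by both replicates. Among the 24 clusters that paired one to one, the start differed by a median of 54 bp and the end by 65 bp, and 19 starts and 18 ends agreed within 200 bp. For the 10 of these pairs with a value of at least 1 in both, the medians were 40 bp and 50.5 bp. On X, 29 clusters paired one to one, with medians of 231 bp and 273 bp. The edges of paired clusters on X were therefore less closely placed. Shifted edges, breaks within shared clusters and clusters without a partner all leave windows covered in 1 replicate alone, and the counts do not separate them. On X these were 27 windows in replicate 1 and 72 in replicate 2. On 3R these numbers were 6 and 17.

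**Figure D5:**
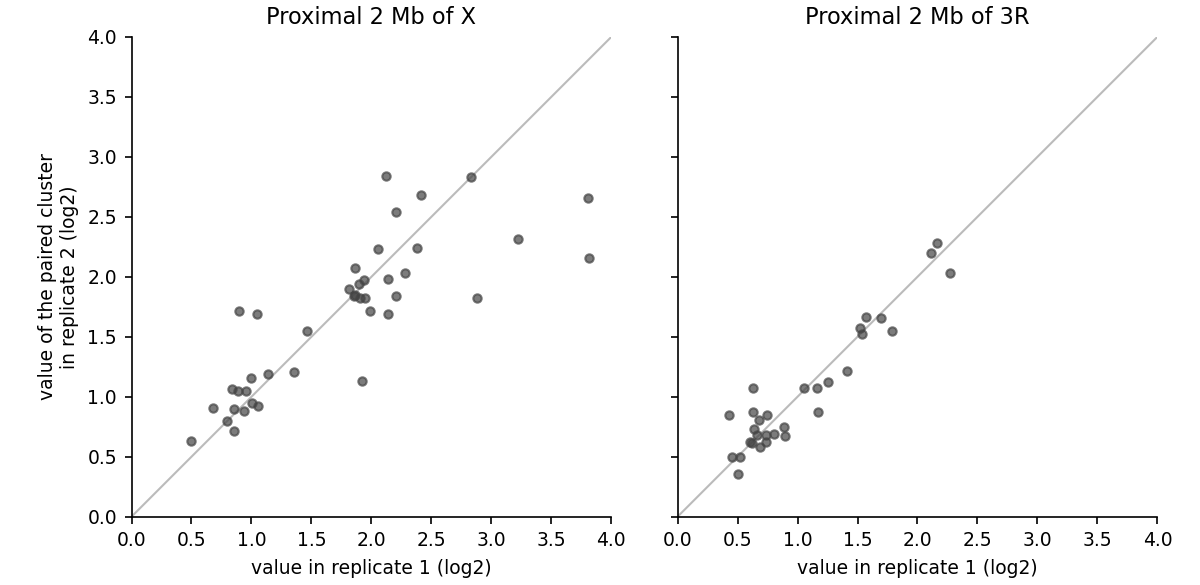
Each point is a replicate 1 cluster that overlaps a replicate 2 cluster, with its log2 value on the horizontal axis and that of the replicate 2 cluster with most overlap on the vertical axis, and the line marks equal values. On 3R, the 31 pairs lie within 0.44 of the line, while on X a few of the 41 pairs lie far below it, by up to 1.65.

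Of the replicate 1 clusters, 41 of 49 on proximal X and 31 of 32 on proximal 3R overlapped a replicate 2 cluster. In the other direction 37 of 56 and 27 of 37 did. The median absolute difference in value over the replicate 1 pairs was 0.16 on X and 0.11 on 3R. Over these pairs Pearson's r was 0.819 on X and 0.947 on 3R, and the Spearman correlation was 0.857 and 0.838. These describe clusters of the same 2 libraries, and some clusters enter more than 1 pair. Clusters found in 1 replicate alone were mostly weak. On X the replicate 2 list had 19 of them with a median of 0.79, against 1.82 for its shared clusters, and on 3R it had 10 with a median of 0.57, against 0.81. The widest of them, 22383502 to 22388388 on X in replicate 2, was 4887 bp wide with a value of 0.70, and the next in that list was 22101258 to 22103505 with 0.97. In replicate 1 the widest on X was 21758862 to 21760866, described above, and the next was 20850200 to 20852200 with 0.95. On 3R replicate 1 had 1 unshared cluster, 190273 to 192106 with 0.56. The widest unshared clusters of replicate 2 there were 508696 to 510684 with 0.78 and 1108137 to 1109714 with 0.26.

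The series list covered more of both ends than either replicate, 19.2% of proximal X and 6.96% of proximal 3R. It had 97 clusters on X, of which 42 overlapped neither replicate, and 51 on 3R, of which 12 did not. The added clusters were narrow and mostly weak, with a median width of 1428 bp and a median value of 0.56 on X, and 1210 bp and 0.37 on 3R. The lists differ in their smallest width, 1001 bp in the series list and 1301 bp in each replicate list. Clusters narrower than 1301 bp thus occur in the series list alone, and their narrowness cannot be told apart from this difference between the lists. On X 6 of the 42 had a value of at least 1, of which 5 lay within the domains. The highest, from 21552134 to 21553142, had 3.77, and the others ran from 1.19 to 2.28. On 3R none of the 12 reached 1. It covered 392 windows of X (19.6%) and 137 of 3R (6.85%), against 7.56% of windows of the major arms and 17.8% of windows of all sequences. Of these, 104 on X and 26 on 3R were covered in neither replicate, and no window covered in both replicates was missed by it on either arm. The series list filled 77.1% of the distal domain and 95.0% of the proximal domain, and left the gap between them empty.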

How the data were processed

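Enriched clusters came as 3 deposited lists, from ChIP replicate 1, ChIP replicate 2 and the series. The submitters' processing notes name Bowtie 0.12.7 as the aligner. The sources used here do not give the cluster caller, its threshold or how replicates were combined. Positions are on FlyBase release 5, per the file headers. Cluster values are as the authors deposited them and were taken as log2 enrichment, since repeated values lie apart by exactly 1 or by the log2 of other simple ratios, while no header states a unit. With read numbers unknown, error was judged from the 2 replicates alone.

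Windows of 1 kb, cover and cluster pairs (at least 1 bp of overlap, partner with most overlap) were computed with Python 3.11.15, numpy 2.4.6 and pandas 2.3.3, and tested on simulated intervals. Background windows were laid from base 1 of each sequence. Named clusters were, in each end and replicate, the 5 widest, the 3 highest in value and the 2 widest unshared, with their counterparts, blocks of at least 5 kb and extreme steps. Other named clusters, and the bounds of the X domains, were chosen after their values were seen. Regions and rules were chosen with earlier results of these data known. Gene positions on Release 6 were not joined to the clusters.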

Additional observations from a re-analysis of the deposited data

How the results depend on the processing

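No paired analysis was possible because no list of an input was analysed here that could be paired with a ChIP library. Stretches were compared within each replicate, without a test. The replicate SD (for window counts, a factor of 1.5) exceeded the shift in 36 of 52 alternative values. Leaving out either replicate cannot move a mean of 2 past its SD, so those values are no sign of stability. X had more cover and more covered windows than 3R under each setting run, but the ratio of their cover ran from 2.29 to 14.3. When the weaker clusters, those under their own list's median, were dropped, cover was 7.84% on X and 0.547% on 3R, covered windows averaged 158 and 12, and median values were 2.19 and 2.17. This setting selects on the value itself and left 4 and 3 clusters on 3R in replicates 1 and 2, so those medians allow no comparison. The series list gave 19.2% and 6.96%, 392 covered windows on X, and medians of 0.63 and 0.53. With a proximal 1 Mb, cover was 20.6% and 7.59%. Without clusters of repeated values it was 10.2% and 4.37%, and when only clusters that both replicates found were kept the 3R median was 0.81. These last settings were chosen after seeing the data. The cause of these shifts was not tested beyond what each setting removes or adds.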
